A study of Hordeum vulgare with 10 samples.

Results

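hvu-new49, hvu-new50, hvu-new51, hvu-new52 and hvu-new53 are 5 predicted barley miRNAs whose mature sequences lie inside one another. They were taken by name from a count table of 142 miRNAs, 81 predicted and 61 known. All 5 reached the minimum of 10 counts over the 9 libraries used for testing. Each starts with the same 20 nt and ends 0, 1 or 2 bases later.

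MicroRNAs are short RNAs cut by a Dicer-like enzyme from a hairpin precursor, and an Argonaute protein uses them to find matching mRNAs, which are then cut or translated less. The 5' end of the mature strand, the seed included, sets most of the target choice. The 3' end varies with the exact cut, with trimming and with tailing, and mature miRNAs that differ there are called isomiRs. The study placed these miRNAs in the miR167 family, with the lowest match probabilities that it printed for any family. It printed no separate value for hvu-new52 and hvu-new53. In Arabidopsis the miR167 family targets mRNAs of the auxin response factors ARF6 and ARF8.

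Small RNA was sequenced from the embryo and scutellum, the absorbing cotyledon of grasses, of dry seeds of the barley cultivar Damazy. Lv seeds were kept from 1972 to 2018 and germinated at 2%, and Hv seeds were kept over the same years and germinated at 86.7%. Both came from 1 lot harvested in 1972, which was dried to 2.96% water with viability above 95% and sealed in 2 air-filled glass flasks at ambient temperatures of 10 to 25 °C. Seed moisture later increased in the flask of the Lv seeds. Rc seeds, the non-stored control, came from a field regeneration of high-viability seeds and were dried to about 7% water. Each group had 3 libraries described as biological replicates, but the seeds of a group came from 1 flask or 1 harvest, so the p-values measure the spread within it. Low viability cannot be told apart from the flask and its moisture, nor storage from the harvest year and the drying.

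The 5 mature sequences are given 5' to 3' in DNA letters, with the seed (bases 2 to 8) and any bases after the shared 20 nt in capitals, because the 3' end is what separates the 5 sets of counts.
hvu-new49: tGAAGCTGccagcatgatct
hvu-new50: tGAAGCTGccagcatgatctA
hvu-new51: tGAAGCTGccagcatgatctG
hvu-new52: tGAAGCTGccagcatgatctGA
hvu-new53: tGAAGCTGccagcatgatctGC
The lengths are 20 nt for hvu-new49, 21 nt for hvu-new50 and hvu-new51, and 22 nt for hvu-new52 and hvu-new53. Of the 10 possible pairs, 6 are nested: hvu-new49 is the start of the other 4, and hvu-new51 is the start of hvu-new52 and hvu-new53. hvu-new50 ends in A and is not nested with the 3 longer sequences that carry G in that place. The seed GAAGCTG is shared by all 5 and was found in 0 of the other 76 predicted miRNAs.

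The predicted precursors fall into 3 types by the bases that follow the shared 20 nt. In genome build IBSC_v2 there were 7 such hairpins, 3 of an A type, 3 of a GA type and 1 of a GC type. The A-type mature sequences lie at 5H:595203354-595203374 (minus strand), 5H:622520531-622520551 (plus strand) and Un:58635528-58635548 (minus strand), where Un holds sequence not placed on a chromosome. The GA-type ones lie at 4H:590941025-590941046 (minus strand), 4H:591009157-591009178 (plus strand) and Un:58632897-58632918 (minus strand). The GC-type one lies at 6H:136921517-136921538 (plus strand). Mature and hairpin positions in the source table disagree by 1 base at all 7 loci, so the positions hold to within 1 base. No annotation of this build was used, so the genes around these loci are not given.

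One hairpin of each type is shown, 5' to 3' on its own strand with the longest listed mature sequence in capitals. The bases after the shared stretch set which members a locus matches exactly.
A-type 3, Un:58635470-58635550, minus strand: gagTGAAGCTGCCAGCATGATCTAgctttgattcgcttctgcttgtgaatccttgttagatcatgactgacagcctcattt
GA-type 1, 4H:590940937-590941048, minus strand: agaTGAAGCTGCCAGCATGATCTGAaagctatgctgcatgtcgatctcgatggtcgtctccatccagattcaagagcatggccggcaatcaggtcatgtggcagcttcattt
GC-type 1, 6H:136921506-136921630, plus strand: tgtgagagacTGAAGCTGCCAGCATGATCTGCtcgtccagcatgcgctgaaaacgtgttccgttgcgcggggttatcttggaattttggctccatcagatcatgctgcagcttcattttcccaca
The hairpins are 81 to 141 nt long, and in each the mature strand is near the 5' end. When folded with RNAfold, their minimum free energies ran from -72.1 to -40.6 kcal/mol, and 18 to 20 of the first 20 mature bases were paired. A star strand, the partner cut from the opposite arm, was listed at 5 of the 7 loci and was 21 nt long. In the GA-type 1 and GC-type 1 hairpins it reads as follows.
GA-type 1 star: aggtcatgtggcagcttcatt
GC-type 1 star: agatcatgctgcagcttcatt

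**Figure D1:**
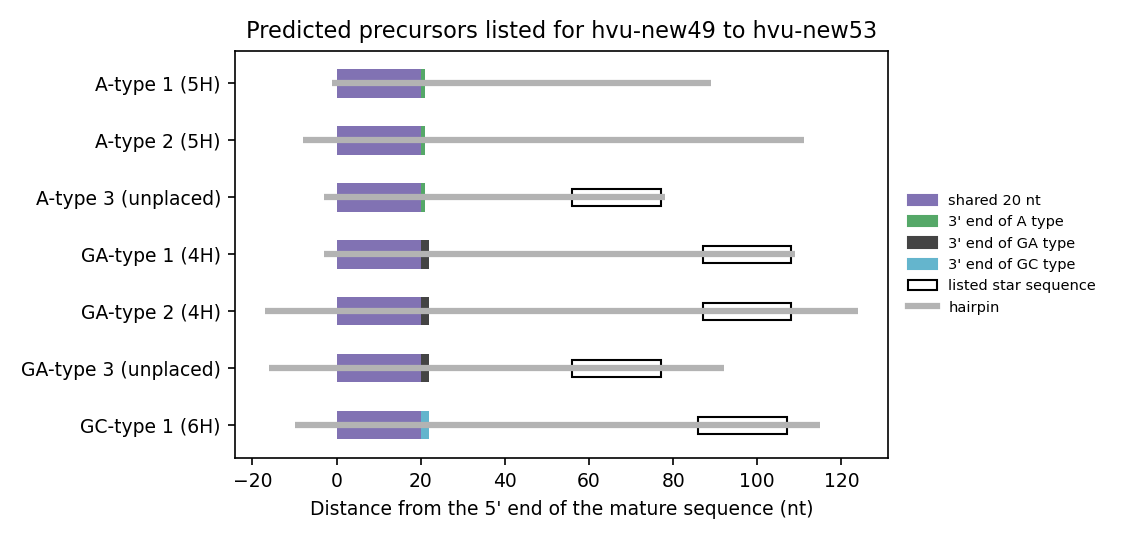
Map of the 7 predicted precursors, with distance from the 5' end of the mature sequence in nt on the horizontal axis and 1 line per hairpin. The purple block is the shared 20 nt, the coloured end the 1 or 2 bases after it, and the open box the star strand, listed at 5 of the 7 loci.

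The map of precursors shows that the members cannot all come from the same loci. hvu-new50 fits only the 3 A-type hairpins and hvu-new53 only the GC-type hairpin. hvu-new52 fits only the 3 GA-type hairpins. hvu-new51 is contained in both GA-type and GC-type hairpins, although it is listed only at 6H. hvu-new49 fits all 7 and is listed at all 7. On Un, an A-type and a GA-type mature sequence lie on the same strand 2630 nt apart. On 4H, the GA-type pair lies 68111 nt apart on opposite strands, and the whole 112-nt hairpin of one is contained in the 141-nt hairpin of the other, so reads cannot be divided between them.

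The counts of hvu-new50 and hvu-new52 also carry the number of listed loci. For hvu-new52, listed at 3 loci, all 9 counts are multiples of 3, and for hvu-new50, also listed at 3, all 6 counts above 0 are. The 4 counts of hvu-new49 above 0 are 33, 24, 24 and 70, of which the first 3 are multiples of 3 and the last is a multiple of 7. Among other predicted miRNAs listed at several loci the pattern held more often than not. It held for hvu-new54 and hvu-new80 at 4 loci and for hvu-new23 at 3. At 2 loci it held for hvu-new3, hvu-new6, hvu-new20, hvu-new30, hvu-new48, hvu-new64, hvu-new69 and hvu-new79. It did not hold in every library for hvu-new45 at 4 loci, hvu-new4 and hvu-new34 at 3, and hvu-new17 and hvu-new40 at 2. Even so, the count of hvu-new45 was 4 times that of miR166.7 in all libraries but Lv replicate 3. Counting each read once per locus would give such multiples, but whether reads were counted so was not tested. Divided counts are therefore given beside the deposited ones: hvu-new50 and hvu-new52 divided by 3, and hvu-new49 divided by 7 where 7 divides the count and by 3 elsewhere, although it is listed at 7 loci. This division of hvu-new49 was chosen after its counts were seen.

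The 9 libraries were shallow. Total counts over the 142 miRNAs ran from 3966 to 11209 in Lv, from 4179 to 14618 in Hv and from 7159 to 19542 in Rc. At these depths 3 counts, the limit that a count of 0 allows for a member counted at 1 locus, correspond to 292 to 649 CPM (counts relative to the TMM-scaled library size) in Lv, 236 to 657 in Hv and 172 to 396 in Rc, and these limits cover counting error only. The 5 members took 4.41 ± 1.21% of a library's counts in Lv, 3.71 ± 0.914% in Hv and 3.82 ± 0.293% in Rc (SD, n = 3 each). The groups were also spread unevenly over the sequencing runs. All Lv libraries and Hv replicate 3 came from run 2, while Hv replicates 1 and 2 and Rc replicates 2 and 3 came from run 1. Rc replicate 1 has records in both runs, and which of them its counts hold is not known.

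hvu-new52, the 22-nt form ending in GA, was the main member and was at a similar level in all groups. It had 2940 deposited counts over the 9 libraries, or 980 when divided by 3. By deposited counts it ranked 7 of 142 miRNAs and 5 of 81 predicted ones, and no rank was taken on divided counts. The counts were 195, 390 and 354 in Lv replicates 1 to 3, 135, 390 and 381 in Hv replicates 1 to 3, and 246, 255 and 594 in Rc replicates 1 to 3. On the scale that removes depth, this was 42177, 39812 and 34461 CPM in Lv, 29575, 40282 and 29976 CPM in Hv, and 28999, 33624 and 33972 CPM in Rc. The highest library, Lv replicate 1, was 1.45-fold above the lowest, Rc replicate 1, and the groups overlapped in both comparisons. The means were 38817 ± 3953 CPM in Lv, 33278 ± 6069 CPM in Hv and 32198 ± 2776 CPM in Rc (SD, n = 3 each).

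For hvu-new52 the log2 fold change of the 6 stored libraries over the 3 Rc libraries was 0.16 (SE 0.15, 95% interval -0.18 to 0.51, edgeR adjusted p = 0.871). Between Lv and Hv it was 0.22 (SE 0.18, 95% interval -0.18 to 0.62, edgeR adjusted p = 0.976). Both intervals include 0, and in each comparison they were the narrowest that these libraries gave for any single member. They rest on deposited counts, which may hold a read more than once. With the divided counts the values were 0.23 (SE 0.20) for stored over Rc and 0.24 (SE 0.24) for Lv over Hv. With deposited counts and library sizes from mapped reads, the stored against Rc value turned to -0.16, still within the stored over Rc interval above.

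hvu-new49, the 20-nt form with no base after the shared stretch, was listed in all Rc libraries and in 1 of the 6 stored ones. Its counts were 0, 0 and 0 in Lv, 0, 33 and 0 in Hv, and 24, 24 and 70 in Rc. Divided, this is 11 in Hv replicate 2 (33 by 3) and 8, 8 and 10 in Rc (24 and 24 by 3, and 70 by 7). The Rc libraries were alike at 2829, 3165 and 4003 CPM, and Hv replicate 2 lay among them at 3408 CPM, so stored and Rc overlapped through that library alone. Set against the limit of 3 counts over the Lv group, the divided counts of hvu-new49 were at least 6.38-fold lower in Lv than in Rc. That limit covers counting error only, and whether such reads were listed as hvu-new50 in Lv instead was not tested. Under the same limit the divided counts were at least 3.36-fold lower in Lv than in Hv, a bound that rests on Hv replicate 2 alone. With the deposited counts, which may hold a read more than once, the same bounds come to 28.95-fold and 10.1-fold.

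hvu-new50, the 21-nt form ending in A, had almost the opposite list of libraries. Its counts were 24, 33 and 12 in Lv, 12, 0 and 24 in Hv, and 0, 0 and 45 in Rc, or 8, 11 and 4, 4, 0 and 8, and 0, 0 and 15 when divided by 3. In CPM it was at 5191, 3369 and 1168 in Lv, 2629, 0 and 1888 in Hv, and 0, 0 and 2574 in Rc. It was thus above 0 in 5 of 6 stored libraries and in 1 of 3 Rc libraries, and the groups overlapped in both comparisons.

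In 8 of the 9 libraries exactly 1 of hvu-new49 and hvu-new50 was listed, and in Rc replicate 3, the deepest library, both were. No library lacked both. Among the 2485 pairs that can be formed from the 71 predicted miRNAs tested, 22 pairs (0.885%) had exactly 1 member listed in at least 8 libraries. Where hvu-new49 replaced hvu-new50 its deposited counts were 24 or 33, values that hvu-new50 also took elsewhere. hvu-new49 is the first 20 bases of hvu-new50, and a mature sequence reported for an A-type locus could be either of them. Whether the table holds 2 molecules or 1 locus reported at different lengths was not tested. hvu-new48 was the only other tested miRNA at 0 in the same 5 libraries as hvu-new49.

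**Figure D2:**
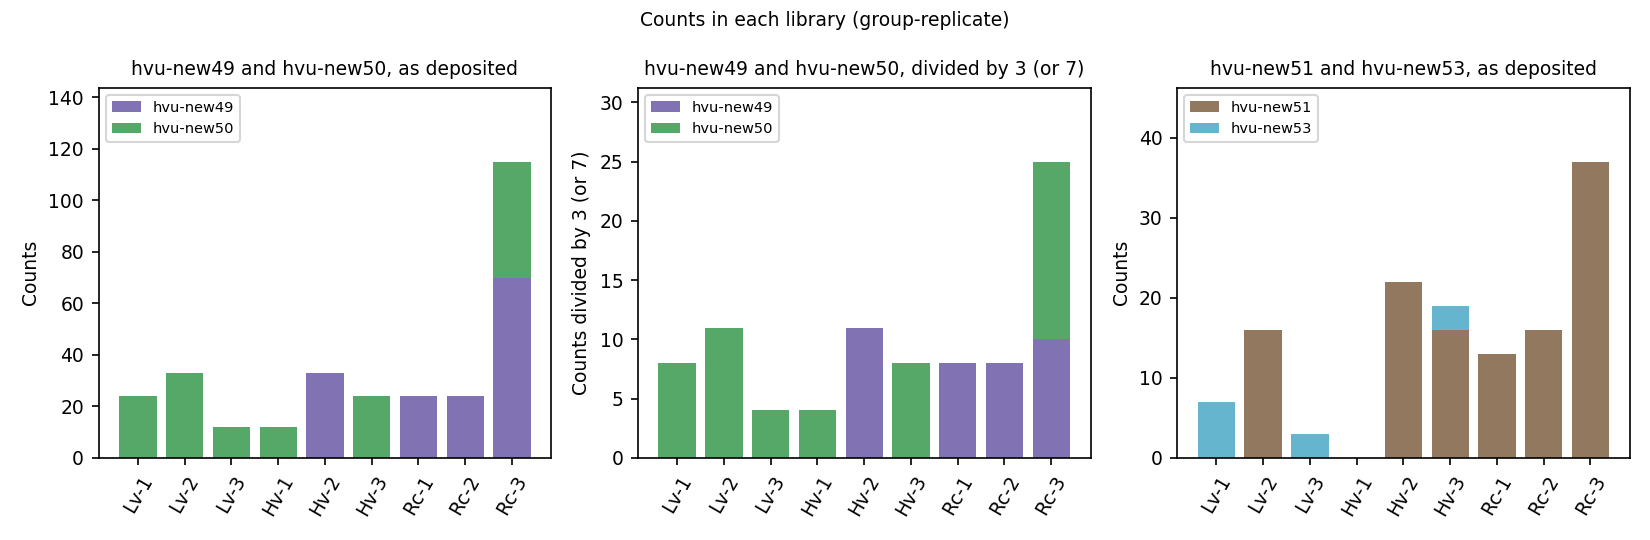
Stacked counts in each library, labelled by group and replicate: hvu-new49 and hvu-new50 as deposited (left), the same divided by 3, or by 7 for hvu-new49 in Rc replicate 3 (middle), and hvu-new51 and hvu-new53 as deposited (right). Only Rc replicate 3 has both hvu-new49 and hvu-new50, and the divided sum of the pair lies between 4 and 11 in the other 8 libraries and is 25 in Rc replicate 3.

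Added together, hvu-new49 and hvu-new50 were listed in every library. The sum was 24, 33 and 12 counts in Lv, 12, 33 and 24 in Hv, and 24, 24 and 115 in Rc. In CPM it averaged 3243 ± 2014 in Lv, 2642 ± 760 in Hv and 4190 ± 2074 in Rc (SD, n = 3 each), and the groups overlapped.

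The single tests of hvu-new49 and hvu-new50 and the test of their sum did not pass. For hvu-new49 the log2 fold change of stored over Rc was -2.47 (SE 1.63, 95% interval -6.11 to 1.18, edgeR adjusted p = 0.690). This value rests on Hv replicate 2: without that library it was -8.01 with an edgeR adjusted p of 0.0117, the remaining stored libraries being all at 0. For hvu-new50 stored over Rc was 1.36 (SE 1.44, 95% interval -1.86 to 4.58, edgeR adjusted p = 0.871), and without Rc replicate 3, the only Rc library that lists it, 7.30 with an edgeR adjusted p of 0.301. For the sum of the pair it was -0.53 (SE 0.48, 95% interval -1.60 to 0.54, edgeR adjusted p = 0.894). The opposite signs of the members did not appear in their sum.

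Between Lv and Hv, hvu-new49 had a fitted log2 fold change of -6.48, which depends on the prior count because Lv was at 0 (edgeR adjusted p = 0.670). Hv replicate 2 carries all of it, and without that library the value was 0. hvu-new50 had 1.12 (SE 1.68, 95% interval -2.69 to 4.92, edgeR adjusted p = 0.986), and the sum of the pair 0.28 (SE 0.59, 95% interval -1.05 to 1.61, edgeR adjusted p = 0.9995). Within run 1 alone, where 2 Hv libraries stand against 2 Rc libraries, the log2 fold change was -1.0 for hvu-new49 and -0.06 for hvu-new50. All Lv libraries lie in the other run, and the part of run in these values was not tested.

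hvu-new51, the 21-nt form ending in G, was again listed in all Rc libraries and in part of the stored ones. Its counts were 0, 16 and 0 in Lv, 0, 22 and 16 in Hv, and 13, 16 and 37 in Rc. In CPM it was at 0, 1633 and 0 in Lv, 0, 2272 and 1259 in Hv, and 1532, 2110 and 2116 in Rc. The 3 Rc libraries lay close together, and the 3 stored libraries that list hvu-new51 lay between 1259 and 2272 CPM, the highest of them above every Rc library. The log2 fold change was -1.09 for stored over Rc (SE 1.26, 95% interval -3.91 to 1.72, edgeR adjusted p = 0.871) and -1.07 for Lv over Hv (SE 1.55, 95% interval -4.57 to 2.44, edgeR adjusted p = 0.986). Without Lv replicate 2, the only Lv library that lists hvu-new51, the Lv over Hv value was -6.54 with an edgeR adjusted p of 0.619.

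hvu-new53, the 22-nt form ending in GC, was the rarest member with 13 counts in all and ranked 92 of 142. Its counts were 7, 0 and 3 in Lv, 0, 0 and 3 in Hv, and 0 in each Rc library. All 13 counts lay in stored libraries, so hvu-new53 reached the minimum of 10 counts only through the group where it is high. Neither the bound nor the stored against Rc p that follow are therefore separate support for a difference. Against the limit of 3 counts over the Rc group, the pooled stored libraries were at least 2.82-fold higher. Of the stored counts, 7 came from Lv replicate 1. Here too the limit covers counting error only, and whether such reads were listed as hvu-new51 in Rc was not tested. The edgeR p was 0.0648 before adjustment and 0.583 after it. Between Lv and Hv, with 10 and 3 counts, the log2 fold change was 2.42 (SE 1.98, 95% interval -2.29 to 7.13, edgeR adjusted p = 0.976). Without Hv replicate 3, the only Hv library that lists it, the value was 5.39 with an edgeR adjusted p of 0.828. These few counts limit what can be said of the GC-type end.

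hvu-new51 and hvu-new53 share the 6H hairpin, and hvu-new51 is the first 21 bases of hvu-new53. Their sum was 7, 16 and 3 counts in Lv, 0, 22 and 19 in Hv, and 13, 16 and 37 in Rc, so that Hv replicate 1 was the only library with neither. In CPM the sum averaged 1146 ± 742 in Lv, 1256 ± 1155 in Hv and 1919 ± 335 in Rc (SD, n = 3 each). Stored over Rc gave -0.65 (SE 0.82, 95% interval -2.47 to 1.17, edgeR adjusted p = 0.894) and Lv over Hv -0.20 (SE 1.02, 95% interval -2.51 to 2.10, edgeR adjusted p = 1). Because hvu-new51 also lies in the GA-type hairpins, its reads cannot be assigned to 6H from the sequence alone.

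**Figure D3:**
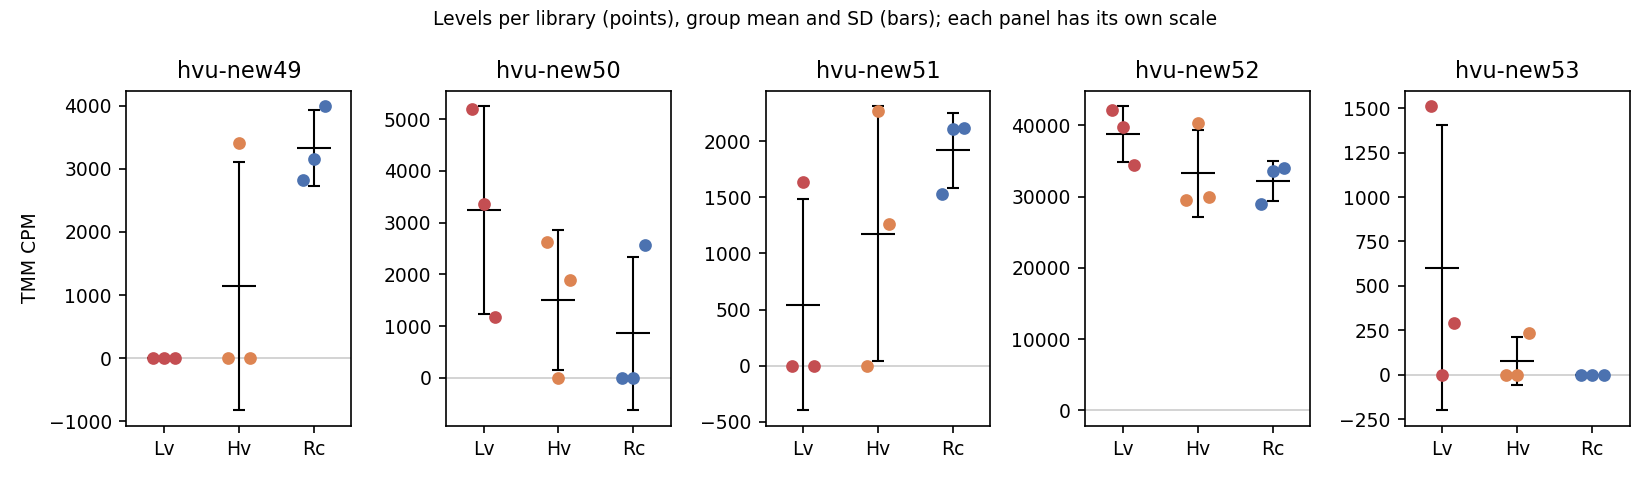
Level of each member in TMM CPM per library (points) for Lv, Hv and Rc, with the group mean (line) and SD (bar, n = 3), each panel on its own scale. hvu-new52 stays between 28999 and 42177 CPM, whereas the other 4 members include libraries at 0 and overlap between groups.

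Taken as 1 quantity, the 5 members had 3374 counts, or 1200 after the division described above. The sums were 226, 439 and 369 counts in Lv, 147, 445 and 424 in Hv, and 283, 295 and 746 in Rc. In CPM they averaged 43206 ± 6628 in Lv, 37175 ± 7632 in Hv and 38308 ± 4680 in Rc (SD, n = 3 each), and the groups overlapped in both comparisons. Stored over Rc had a log2 fold change of 0.04 (SE 0.19, 95% interval -0.37 to 0.46, edgeR adjusted p = 0.999). Lv over Hv had 0.25 (SE 0.22, 95% interval -0.24 to 0.74, edgeR adjusted p = 1). The sign of the stored against Rc value turned under several settings, to as low as -0.26 with mapped-read library sizes, and within run 1 it was -0.06.

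None of the 5 members passed an adjusted p of 0.05 in edgeR in either comparison, and neither did any other miRNA, 0 of 99 tested (0%). At an unadjusted edgeR p under 0.05 there were 9 of 99 miRNAs (9.09%) for stored against Rc, none of them a member, and 5 of 99 (5.05%) for Lv against Hv, hvu-new49 among them. DESeq2 passed 3 of the 98 miRNAs to which it gave a p (3.06%) for stored against Rc and 0 of 99 for Lv against Hv, with 6 (6.12%) and 3 (3.03%) at an unadjusted p under 0.05. It passed 0 of the 5 members and gave hvu-new49 no p for stored against Rc. None of the 5 had non-overlapping groups, against 3 of 99 miRNAs (3.03%) lower in stored seeds, 0 higher, and for Lv against Hv 5 higher (5.05%) and 3 lower (3.03%).

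The direction of the members was mixed. In both comparisons 3 of the 5 fold changes were above 0, hvu-new50, hvu-new52 and hvu-new53, beside 48 of 99 miRNAs (48.5%) for stored against Rc and 43 of 99 (43.4%) for Lv against Hv. The members' median log2 fold change was 0.16 for stored against Rc and 0.22 for Lv against Hv, beside medians of -0.02 and -0.01 over all 99. In each case the median member is hvu-new52.

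**Figure D4:**
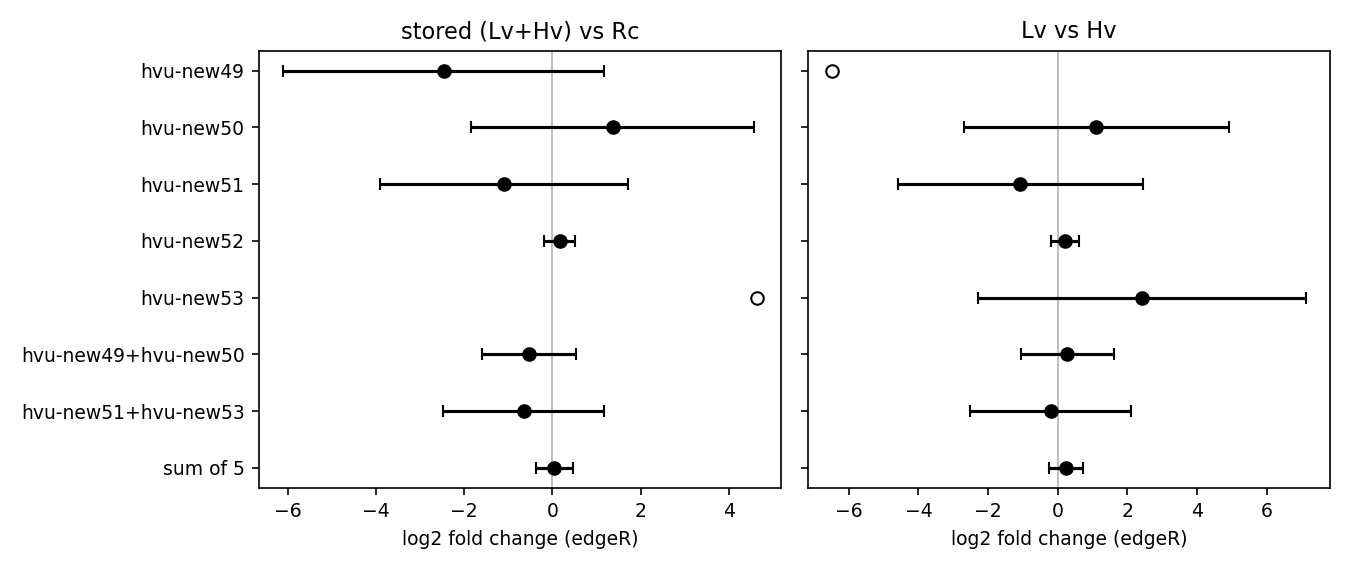
edgeR log2 fold change of the stored libraries over Rc (left) and of Lv over Hv (right) for each member and the sums, with 95% intervals. Open circles are fits with a group at 0, drawn with no interval, and every interval drawn includes 0.

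The make-up of the set was compared as shares of its summed counts. hvu-new52 made up 86.3, 88.8 and 95.9% in Lv, 91.8, 87.6 and 89.9% in Hv, and 86.9, 86.4 and 79.6% in Rc. The group means were 90.4 ± 5.0% in Lv, 89.8 ± 2.10% in Hv and 84.3 ± 4.08% in Rc (SD, n = 3 each). The stored mean was thus 5.73 points above the Rc mean, with 1 Lv library below 2 of the 3 Rc libraries (exact two-sided permutation p = 0.0714, adjusted over the 4 shares compared 0.127).

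The share of hvu-new52 and those of the 2 sums below add to 100% in each library. A higher stored share of hvu-new52 thus fixes that the 2 sums together were lower, and their joint direction is no separate result. None of the other shares passed. hvu-new49 and hvu-new50 together made up 7.13 ± 3.70% in Lv, 7.08 ± 1.28% in Hv and 10.7 ± 4.11% in Rc, a stored minus Rc difference of -3.57 points (exact permutation p = 0.167, adjusted 0.167). hvu-new51 and hvu-new53 together made up 2.52 ± 1.5% in Lv, 3.14 ± 2.73% in Hv and 4.99 ± 0.416% in Rc, a difference of -2.16 points (exact permutation p = 0.0476, adjusted 0.127). Within the hvu-new49 and hvu-new50 pair, hvu-new49 took 0% in every Lv library, 0, 100 and 0% in Hv, and 100, 100 and 60.9% in Rc, a difference of -70.3 points (exact permutation p = 0.0952, adjusted 0.127). The smallest p that 6 against 3 libraries can give is 0.0238.

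By length, the 22-nt members held 91.7 ± 4.42% of the summed counts in Lv, 90.0 ± 2.15% in Hv and 84.3 ± 4.08% in Rc. The 21-nt members held 8.34 ± 4.42% in Lv, 7.51 ± 2.31% in Hv and 7.00 ± 3.48% in Rc. The 20-nt hvu-new49 held 0% in Lv, 2.47 ± 4.28% in Hv and 8.67 ± 0.644% in Rc (SD, n = 3 each). In the deposited counts the lower 22-nt share in Rc thus stands beside a higher 20-nt share and not a higher 21-nt share. With the divided counts the mean 21-nt share was highest in Rc too, so this reading depends on the division. These 3 shares were not tested.

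The differences of the shares between Lv and Hv were small for 3 of the 4 shares, at 0.57 points for hvu-new52 (exact permutation p = 0.9), 0.05 points for hvu-new49 and hvu-new50 (p = 0.9, exact permutation) and -0.62 points for hvu-new51 and hvu-new53 (p = 0.6, exact permutation). The share of hvu-new49 within its pair differed by -33.3 points, all of it from Hv replicate 2 (exact permutation p = 1). All 4 had an adjusted p of 1, and 3 against 3 libraries cannot go below 0.1.

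The shares depend on how the counts are divided. With hvu-new50 and hvu-new52 divided by their 3 listed loci and hvu-new49 left as deposited, since 7 does not divide all its counts, the stored minus Rc difference was 17.6 points for hvu-new52 and -13.4 points for the hvu-new49 and hvu-new50 pair, each with an adjusted exact permutation p of 0.0476. With hvu-new49 also divided, by 7 where 7 divides the count and by 3 elsewhere, the pair was at 6.74 ± 3.41% in Lv, 6.70 ± 1.48% in Hv and 8.24 ± 1.21% in Rc, a difference of -1.52 points (adjusted exact permutation p = 0.381). Under this second division the difference was 7.5 points for hvu-new52 (exact permutation p = 0.0238, the smallest possible, adjusted 0.0952) and -5.98 points for hvu-new51 and hvu-new53 (exact permutation p = 0.0476, adjusted 0.0952).

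The miRNAs whose profile over the 9 libraries was most like that of hvu-new52 were hvu-new45, miR166.7 and hvu-new46. Likeness was the root mean square difference of log2(CPM + 1) after centring each profile on its mean, and it was 0.217, 0.220 and 0.254 log2 units for these 3, beside a median of 3.82 over the 94 other tested miRNAs. For the summed members the order was hvu-new46 (0.232), hvu-new45 (0.240) and miR166.7 (0.246). All 3 were among the 34 other tested miRNAs listed in every library, as hvu-new52 was. The median over 94 includes miRNAs with libraries at 0, which widen the difference, and no median over the 34 alone was taken. The count of hvu-new45 was 4 times that of miR166.7 in all libraries but Lv replicate 3, so these are not separate profiles.

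Other conserved miRNAs were read beside the members as a background. Of the auxin-related families miR160, miR164, miR390 and miR393, 0 of 4 had a known miRNA in the table. Of 7 other conserved families, miR156, miR159, miR166, miR168, miR171, miR396 and miR397, 6 were present with 36 known miRNAs, of which 17 were tested. None of the 17 passed edgeR's adjusted p in either direction in either comparison. Their median log2 fold change was -0.06 for stored against Rc, with 8 of 17 above 0, and -0.15 for Lv against Hv, with 6 of 17 above 0.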

How the data were processed

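Small RNA of 9 barley seed libraries (Lv, Hv and Rc, 3 each) was sequenced by the authors, trimmed, mapped to genome build IBSC_v2 and searched for known miRNAs with miRProf and predicted ones with miRCat. The authors deposited raw counts per miRNA, without normalization. 9 further columns of normalized values and the authors' own comparison columns (fold changes, p-values, dispersions) were not used. Sequences and precursor positions came from the supplementary tables of predicted miRNAs.

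Counts were tested with edgeR 4.0.16 in R 4.3.3 (TMM, quasi-likelihood test, Benjamini-Hochberg adjustment over the whole table of miRNAs whose counts summed to 10 or more, threshold 0.05). Stored (Lv and Hv, 6) against Rc (3) was a 2-group fit, and Lv against Hv a contrast in a 3-group fit. For sums, the members were replaced by their sum, leaving 97 or 95 miRNAs tested. Shares were compared with exact two-sided permutation tests (scipy 1.17.1), and hairpins folded with RNAfold 2.7.2. The tests were tested on simulated data. Total counts ran from 3966 to 19542 per library.

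Named miRNAs were the 5 members, the 3 nearest in profile to hvu-new52 and to the sum, and any at 0 in the same libraries as a member. The members and lists were chosen with earlier results of these data known. Alternatives were DESeq2 1.42.0, its size factors, mapped-read library sizes, no filter, a replicate block, run as a covariate or 1 run only, counts divided by listed loci, other groupings in the fit and leaving out each library. Replicate numbers did not pair the libraries.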

Additional observations from a re-analysis of the deposited data

Results flagged for a closer look

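In 2 cases 1 of the 6 stored libraries stood far from the other 5, with a gap to its neighbour past Dixon's 95% limit. hvu-new49 was at 3408 CPM in Hv replicate 2 and at 0 in the other 5 stored libraries, a gap of 1 of the range. hvu-new53 was at 1514 CPM in Lv replicate 1, a gap of 0.807 of the range, with 292 CPM in Lv replicate 3 as the next value. 8 quantities were examined in this way. With 5 of 6 values at 0 the gap of hvu-new49 is 1 whatever its level, and the rate of about 1 in 20 that chance gives for continuous values does not apply to such counts. The first value rests on 33 counts and the second on 7, and Lv replicate 1 was the shallowest library, with 3966 counts.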

How the results depend on the processing

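Of 396 recomputed values for 24 results on the members, 371 were counted as keeping their direction and side of the threshold. These include values of exactly 0, such as hvu-new49 for Lv against Hv without Hv replicate 2. They also include the DESeq2 fit that gave hvu-new49 no p for stored against Rc. A further 22 turned direction, 3 came to pass the threshold and 0 lost it, since 0 passed at first. The number of miRNAs past an edgeR adjusted p of 0.05 for stored against Rc, 0 as reported, was 2 with no filter, 3 with DESeq2, 2 with counts divided by listed loci and 0 to 1 with a library left out. The 1 was hvu-new49 without Hv replicate 2 and no member without Hv replicate 1, so that 0 to 1 members passed. For Lv against Hv 0 to 1 miRNAs passed with a library left out. The stored against Rc sum of the 5 was -0.26 with mapped-read sizes, -0.059 with run as a covariate, -0.061 in run 1 alone, -0.21 with counts divided by listed loci and -0.026 (without Rc replicate 1) to 0.16 with a library left out. hvu-new52 was -0.16 with mapped-read sizes, and hvu-new50 -0.069 with run as a covariate and -0.059 in run 1 alone. For Lv against Hv, hvu-new49 and hvu-new50 together ran from -0.22 to 0.69 with a library left out and were -0.69 divided by listed loci. hvu-new51 and hvu-new53 together ran from -0.73 to 0.43, and were 0.52 without Hv replicate 2 and Rc replicate 3, a setting chosen after seeing the data, as was the per-library division. Lv minus Hv shares with a library left out ran from -2.22 to 2.61 points for hvu-new52, -1.70 to 1.99 for hvu-new49 and hvu-new50 (-3.66 divided by listed loci) and -2.19 to 0.28 for hvu-new51 and hvu-new53. The cause of these turns was not tested. Same-numbered libraries did not deviate together (correlations -0.14 to 0.14), and a replicate block changed no call, with 0.04 for the stored against Rc sum and 0.27 for Lv against Hv. hvu-new53 had no value without Lv replicate 1 or, for stored against Rc, in run 1 alone, and hvu-new49 had no value in run 2 alone. Depth limits all members but hvu-new52: 3 counts stand for 172 to 657 CPM.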
